A study of Mus musculus with 6 samples.

Results

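The genes described are 5 enzyme genes of sugar and glycerol metabolism, followed through chondrogenic induction of ATDC5 cells. They were chosen by the names of their probes, out of 16 genes that this array names through a transcript accession or a control spot. ATDC5 is a mouse line derived from a teratocarcinoma and used as a model of cartilage formation. The genes were Gapdh and Pgk1 of glycolysis, Ldhal6b of the lactate dehydrogenase family, G6pd2 of the pentose phosphate pathway and Gk, the glycerol kinase. Gapdh, Gk, Ldhal6b and G6pd2 were each read by 1 of the 15 probes that carry a transcript accession, among 60915 probes in all. Pgk1 was read only by control spots, and Gapdh by both. The control spots with GAPDH or PGK1 in their names comprised 12 probes, named for mouse, rat or human and for the 3' or the 5' part of the transcript.

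The differentiated group had 3 arrays of ATDC5 cells induced over 14 days by 1% ITS. ITS holds insulin and, per the labels, transferrin at 5.5 µg/ml with sodium selenite at 5 ng/ml. The undifferentiated group had 3 arrays of ATDC5 cells. Both groups were kept in DMEM/Ham's F-12 medium with serum. The treatment text stands in the labels of all 6 samples, so the groups follow their titles, and how long the undifferentiated cells were cultured is not given. The insulin concentration is printed as zero in that text. All samples came from this single line, and the labels do not call the replicates separate cultures. The p-values therefore measure the spread among these 6 samples only, which may be technical.

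Between 62.6% and 71.0% of probes per array were well above background by the scanner software's own test. Array pairs correlated at 0.982 to 0.993 within a group and at 0.960 to 0.971 between groups. Slide 1 carried the 3 differentiated arrays together with undifferentiated array 3, and slide 2 the other two undifferentiated arrays. Differentiated arrays 2 and 3 shared a scan with undifferentiated array 3. Of 29 marker genes listed for cartilage and other cell types, 0 are named by an accession-bearing probe. The cell type was therefore not checked here against markers.

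Glycolysis splits glucose into pyruvate and yields ATP without oxygen. Gapdh makes the step that oxidises glyceraldehyde 3-phosphate, and Pgk1 makes the next one, which yields ATP. Lactate dehydrogenases convert pyruvate to lactate. The pentose phosphate pathway branches off at glucose 6-phosphate dehydrogenase and supplies NADPH and ribose, and glycerol kinase brings glycerol into lipid and sugar metabolism. Cartilage has no blood vessels, and its cells are known to live largely from glycolysis. G6pd2 and Ldhal6b are intronless relatives of G6pdx and of the lactate dehydrogenase genes and are known mainly from the testis.

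The probes' own sequences were not used here. The promoters of the 5 genes are described to show how different the members are as genes. Printed are those of Gapdh and of Pgk1 and G6pd2, which had the lowest and the highest difference as scaled here. Neither of these differences passed limma's test, and a link between promoter letters and RNA levels was not tested. All 5 genes matched RefSeq's table for the build GRCm38.p6. Each sequence below is the 250 bases before the transcription start, 5′ to 3′ on the gene's strand. The capitals mark ACGTG or GCGTG on either strand, the core letters of hypoxia response elements, to which hypoxia-inducible factors bind.
Pgk1 at chrX:106186850-106187099, + strand: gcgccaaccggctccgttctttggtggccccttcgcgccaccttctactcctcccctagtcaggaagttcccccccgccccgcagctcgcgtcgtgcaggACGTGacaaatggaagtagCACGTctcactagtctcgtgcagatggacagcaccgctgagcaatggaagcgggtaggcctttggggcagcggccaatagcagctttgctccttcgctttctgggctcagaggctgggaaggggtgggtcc
Gapdh at chr6:125165774-125166023, - strand: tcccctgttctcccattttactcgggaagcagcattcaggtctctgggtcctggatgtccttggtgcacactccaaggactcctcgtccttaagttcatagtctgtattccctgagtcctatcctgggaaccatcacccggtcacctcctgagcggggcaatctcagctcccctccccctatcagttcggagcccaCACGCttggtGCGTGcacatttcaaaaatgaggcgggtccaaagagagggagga
G6pd2 at chr5:61808593-61808842, + strand: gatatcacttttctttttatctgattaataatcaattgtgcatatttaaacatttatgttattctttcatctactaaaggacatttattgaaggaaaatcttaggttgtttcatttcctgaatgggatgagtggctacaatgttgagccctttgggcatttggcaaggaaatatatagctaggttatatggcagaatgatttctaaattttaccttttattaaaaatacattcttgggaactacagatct

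The Pgk1 window held 2 matches to ACGTG and the Gapdh window 2 to GCGTG. The window of Gk at chrX:85776820-85777069 (- strand) held 2 to ACGTG, which overlap as the single palindrome CACGTG. The windows of G6pd2 and of Ldhal6b (chr17:5418768-5419017, - strand) held 0. Of all 32851 promoter windows of this length, 38.6% held at least 1 of these letters' matches. A match is a description of the letters, and RNA levels on these arrays do not show what binds there. The CpG count was 21 for Gk, 17 for Pgk1, 8 for Gapdh, 2 for Ldhal6b and 0 for G6pd2, against a median of 6 over all windows. G+C made up 67.2%, 62.8%, 55.6%, 43.6% and 30.0% of the same windows, with a median of 52.4% over all.

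G6pd2 and its X-linked relative G6pdx share a run of bases near the start of transcription. It was picked as the longest run common to the windows of these 2 genes, and does not measure how closely they are related. It lies at chr5:61808833-61808859 on the + strand for G6pd2 and at chrX:74428839-74428865 on the - strand for G6pdx (GRCm38.p6), and is 27 bases long. Of all promoter windows with 50 bases after the start, only those of these 2 genes held it.
G6pd2 and G6pdx: ctacagatctgtgaacgtgtttggcag
How far the G6pd2 probe tells the transcripts of these genes apart is not known here. The same holds for Gapdh and Pgk1, which have many processed copies in the genome, and for Ldhal6b and Gk, which have relatives of similar sequence.

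Setting differentiated against undifferentiated cells asks whether the transcripts of these enzymes moved with chondrogenic induction. None of the 4 non-control member probes passed limma's test, with 0 at an adjusted p under 0.05 and 0 at an unadjusted p under 0.05, and 0 of the 12 control-spot probes passed, with 2 at an unadjusted p under 0.05. Over all 41838 probes tested, limma called 13.3% (5.39% higher and 7.92% lower in the differentiated group), and 26.1% had an unadjusted p under 0.05. The balance of these calls turned with the batch in the fit, from 2254 higher and 3315 lower to 1905 and 1308 with the slide as a block, 1061 and 459 with the scan as a block, and 1654 and 768 within slide 1. The median log2 difference was -0.02 over the 4 member probes, with 2 values above and 2 below zero, and -0.05 over all probes tested. Over the 12 control-spot probes it was -0.23, with 11 values below zero, of which 4, all of Gapdh, were above zero with quantile normalization. Levels here are log2 signals relative to the array's 75th percentile, and differences are differentiated minus undifferentiated. On each of the 6 arrays the spots of these probes were well above background, and 0 were saturated.

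**Figure D1:**
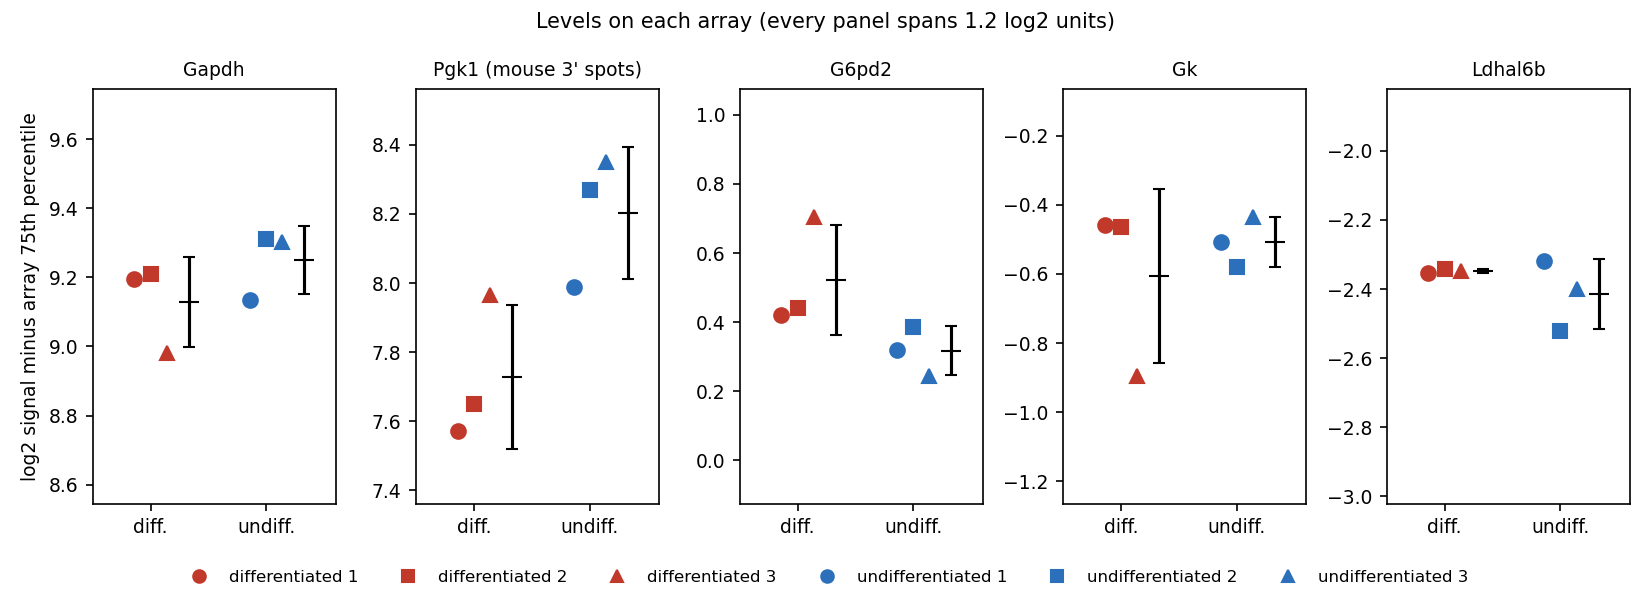
The log2 level of each enzyme gene on each array relative to the array's 75th percentile, with 3 differentiated arrays in red and 3 undifferentiated arrays in blue, and the mean ± SD as a black bar. The groups do not overlap for Pgk1, where differentiated arrays are lower, and for G6pd2, where they are higher. Differentiated array 3 holds the lowest Gapdh and Gk levels and the highest G6pd2 level.

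Gapdh, the glycolytic dehydrogenase often taken as an expression reference, had levels of 9.20, 9.21 and 8.98 on differentiated arrays 1, 2 and 3. On undifferentiated arrays 1, 2 and 3 its levels were 9.14, 9.31 and 9.30. The groups overlapped, since undifferentiated array 1 lay below differentiated arrays 1 and 2. The log2 difference was -0.12 (SE 0.130, n = 3 each, limma, adjusted p = 0.616). Its 95% interval of -0.43 to 0.19 spans values from 1.34-fold lower to 1.14-fold higher. The spots of this probe, 20 per array, had median signals of 114600 to 166124 intensity units. Their SD within an array was 0.025 to 0.075 on the log2 scale, below the SD of 0.129 between differentiated and of 0.099 between undifferentiated arrays. The residual SD of Gapdh between arrays of a group was 0.115, where 14.8% of all probes tested had a value as low or lower. For its absolute difference between the groups this share was 28.3%, and both shares cover probes of any brightness. With quantile normalization the Gapdh difference was 0.06, and in the authors' value table it was 0.05, so its sign depends on the scaling.

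The control spots read Gapdh at further places. The mouse-named 3' spots gave 8.35, 8.37 and 8.10 on differentiated arrays 1, 2 and 3, and 8.36, 8.57 and 8.71 on undifferentiated arrays 1, 2 and 3. Undifferentiated array 1 lay between differentiated arrays 1 and 2, so the groups overlapped. The difference was -0.27 (SE 0.148, n = 3 each, limma, adjusted p = 0.313), again with the other sign under quantile normalization (0.04) and in the authors' value table (0.04). The mouse-named 5' spots gave -0.13 (SE 0.180, limma, adjusted p = 0.709), and 0.13 and 0.11 under those settings. Of all probes tested, 54.3% had an absolute difference at or below that of the 3' spots, and 29.7% at or below that of the 5' spots. For the residual SD these shares were 32.6% and 58.4%, higher than for the accession-bearing Gapdh probe. None of these 3 readings of mouse Gapdh showed a difference beyond the spread between arrays.

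Pgk1, the phosphoglycerate kinase, had the largest difference among the 5 genes as scaled here, read by its mouse-named 3' spots. With quantile normalization and in the authors' value table, G6pd2 (0.21 and 0.23) exceeded these spots in size (-0.15 and -0.16). The Pgk1 5' spots stayed larger in size than G6pd2 there. They stood at -0.28 and -0.29 (mouse-named), -0.32 and -0.33 (rat-named) and -0.47 and -0.44 (human-named). The mouse-named 3' spots of Pgk1 had levels of 7.57, 7.65 and 7.97 on differentiated arrays 1, 2 and 3, and of 7.99, 8.27 and 8.35 on undifferentiated arrays 1, 2 and 3. All 3 differentiated arrays lay below all 3 undifferentiated ones, though differentiated array 3 and undifferentiated array 1 differed by little. The means were 7.73 ± 0.208 and 8.20 ± 0.190 (SD, n = 3 each). The log2 difference of -0.47 (SE 0.164), or 1.39-fold lower, had a 95% interval of -0.86 to -0.09 and missed the threshold over all probes (limma, adjusted p = 0.116). Groups without overlap were found for 32.8% of all probes tested, and for 19.2% with the differentiated arrays lower. The median signals of these spots were 37179 to 65139 intensity units on differentiated and 66931 to 82132 on undifferentiated arrays.

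A second probe, named for human PGK1 at its 3' part, also gave strong signal with this mouse RNA, at 7623 to 15160 intensity units. Its levels were 5.29, 5.24 and 5.36 on differentiated arrays 1, 2 and 3, and 5.84, 5.70 and 5.68 on undifferentiated arrays 1, 2 and 3. The arrays of each group lay close together and the groups were well apart. Here the difference was -0.44 (SE 0.118, n = 3 each), or 1.36-fold lower, with a 95% interval of -0.72 to -0.16 (limma, adjusted p = 0.0522). The residual SD of 0.075 was lower than for the mouse-named probe, at 0.199. The human-named probe passed limma's test with the normexp background (adjusted p = 0.00905) and the filter on all 6 arrays (0.0396). It also passed with the intensity trend (0.0255), outlier spots kept (0.0410) and without differentiated array 3 (0.0463). Under the other alternatives it did not pass. Its adjusted p in limma was 0.116 with no filter, 0.118 with the replicate block and 0.107 to 0.181 without any other single array. The mouse-named probe passed only with the normexp background among the settings tried (adjusted p = 0.0382 in limma).

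The mouse- and human-named Pgk1 3' readings shrank with the scaling. The rat-named 3' spots did not, at -0.12 as reported and -0.14 with quantile normalization and in the authors' value table. With quantile normalization the log2 difference was -0.15 for the mouse-named and -0.18 for the human-named spots (limma, adjusted p = 0.648 and 0.466), and in the authors' value table it was -0.16 and -0.23 (limma, adjusted p = 0.608 and 0.375). With the slide as a block it was -0.62 and -0.38 (limma, adjusted p = 0.182 and 0.275), resting on undifferentiated array 3 alone. Gapdh and the mouse- and human-named Pgk1 3' spots are among the brightest 10% of probes kept, and the rat-named 3' spots are not. The median difference of these bright probes was -0.23 as reported, 0.0036 with quantile normalization and -0.01 in the authors' value table. Set against that median, the mouse-named Pgk1 spots stood at -0.24, -0.15 and -0.15, and Gapdh at 0.11, 0.05 and 0.06. The part of the bright probes' shift in the Pgk1 difference was not tested further.

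**Figure D2:**
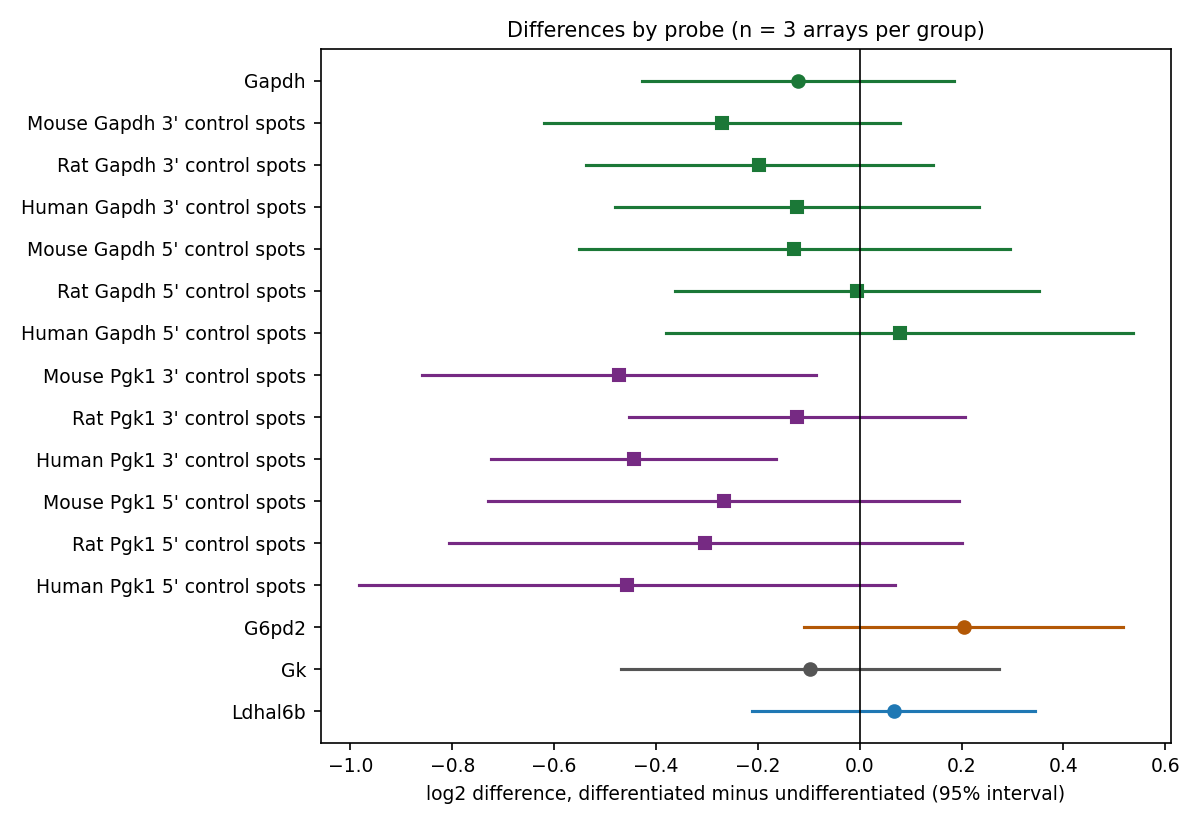
The log2 difference between 3 differentiated and 3 undifferentiated arrays for each probe of the 5 genes, with limma's 95% interval as a line. Circles are the accession-bearing probes and squares the control spots, coloured by gene. The intervals of the mouse- and human-named Pgk1 3' spots lie below 0, and all others hold 0.

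The remaining Pgk1 probes differed less clearly between the groups. The mouse-named 5' spots were dim, at 116 to 260 intensity units, and had levels of -0.74, -0.72 and -0.28 on differentiated and of -0.02, -0.37 and -0.55 on undifferentiated arrays 1, 2 and 3. The groups overlapped, with differentiated array 3 among the undifferentiated arrays. The difference was -0.27 (SE 0.196, limma, adjusted p = 0.456). The rat-named 5' spots gave -0.30 and the human-named ones -0.46 (limma, adjusted p = 0.437 and 0.257), and the rat-named 3' spots gave -0.12 (limma, adjusted p = 0.639). All 6 Pgk1 probes thus had values below zero, though with the scan as a block the mouse-named and rat-named 5' spots stood at 0.05 and 0.0028. The 3' and 5' spots did not follow each other from array to array. Centred on their own means, the mouse-named 3' spots stood at 0.02, 0.30 and 0.38 on undifferentiated arrays 1, 2 and 3. The mouse-named 5' spots stood at 0.43, 0.07 and -0.10 there. Single arrays and batches moved the group differences of the 5' spots. Leaving out 1 array gave -0.42 to -0.12 for the mouse-named, -0.49 to -0.15 for the rat-named and -0.61 to -0.26 for the human-named 5' spots, lowest without differentiated array 3 and nearest zero without undifferentiated array 1. Blocking by slide left them at -0.03, -0.11 and -0.16, and the human-named spots at -0.10 with the scan as a block and -0.12 with the normexp background. These probes share their arrays and are named for the same gene, so that their number adds no replication.

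Probes of the same gene and end followed each other to different degrees from array to array. Each probe was centred on its own mean over the 6 arrays, which removes only a constant offset of its log2 level. Effects that depend on brightness remain. For the 5' part of Pgk1 the mouse- and rat-named spots then differed by at most 0.077 on any array (root mean square 0.050), while either varied by several times that between arrays. For the 3' part the rat-named spots differed from the mouse-named ones by up to 0.43 (root mean square 0.316) and the human-named ones by up to 0.30 (0.188). For the 3' part of Gapdh these root mean square differences were 0.111 for rat and 0.172 for human, and for the 5' part 0.099 and 0.150. Which transcripts the rat- and human-named probes bind in mouse RNA is not known here.

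**Figure D3:**
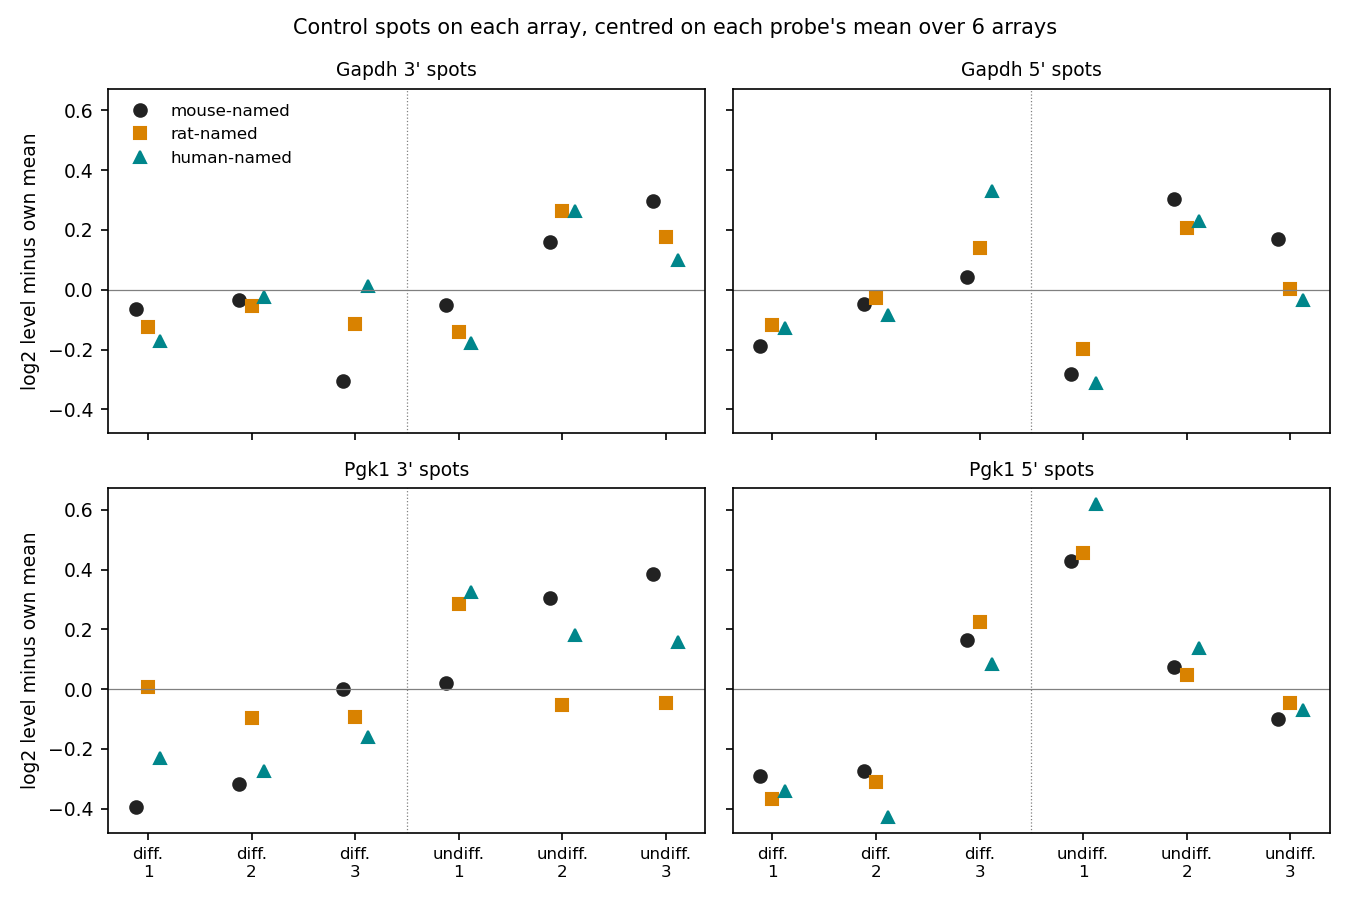
The log2 level of each Gapdh and Pgk1 control-spot probe on the 6 arrays, minus the probe's own mean over the arrays, with mouse-, rat- and human-named probes as circles, squares and triangles. The 3 probes for the Pgk1 5' part move together, highest on undifferentiated array 1, while the rat-named Pgk1 3' probe stays within 0.098 of its mean except on that array.

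The signal of 5' minus 3' control spots was compared between the groups for each gene and named species, 6 comparisons in all. The group difference was 0.14 for mouse-named Gapdh and 0.21 for mouse-named Pgk1 (two-sided exact permutation p = 0.5 for each, where 0.1 is the smallest possible). For rat-named Gapdh it was 0.19, from -1.26 ± 0.067 to -1.07 ± 0.137 (SD, n = 3 each), and the groups did not overlap (exact permutation p = 0.1). It was 0.20 for human-named Gapdh, -0.18 for rat-named Pgk1 and -0.01 for human-named Pgk1. Mouse-named Gapdh stood at 0.0031 without differentiated array 3 and 0.06 without undifferentiated array 1, and at up to 0.25 without another array. Mouse-named Pgk1 stood at 0.01 without undifferentiated array 3, at 0.46 without undifferentiated array 1 and at 0.59 with the slide as a block. Rat-named Pgk1 ranged from -0.38 without differentiated array 3 to -0.04 without differentiated array 1. After Benjamini-Hochberg adjustment of the exact permutation p-values over the 6, the lowest was 0.6. With 0.1 as the smallest possible p, no adjusted value could pass 0.05 whatever the data. No conclusion on the balance between the transcripts' ends is drawn with this number of arrays.

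Ldhal6b, the lactate dehydrogenase A-like gene, gave the dimmest signal of the accession-bearing member probes, at 38.6 to 53.6 intensity units, where negative-control probes had medians of 3.35 to 4.42. Its levels were -2.35, -2.34 and -2.35 on differentiated and -2.32, -2.52 and -2.40 on undifferentiated arrays 1, 2 and 3. The differentiated arrays lay very close together (SD 0.0057) and inside the range of the undifferentiated ones. The difference was 0.07 (SE 0.118, n = 3 each, limma, adjusted p = 0.771), with a 95% interval of -0.21 to 0.34, or 1.16-fold lower to 1.27-fold higher. The close agreement of the differentiated arrays stands beside a spread of the 20 spots within each of them of 0.156 to 0.331 (SD, log2). The sign was positive under all alternatives run, from 0.01 without undifferentiated array 2 to 0.11.

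G6pd2, the retrogene relative of glucose 6-phosphate dehydrogenase, had levels of 0.42, 0.44 and 0.70 on differentiated arrays 1, 2 and 3, and of 0.32, 0.39 and 0.25 on undifferentiated arrays 1, 2 and 3. All 3 differentiated arrays lay above the undifferentiated ones, with differentiated array 3 the highest of all. The means were 0.52 ± 0.159 and 0.32 ± 0.071 (SD, n = 3 each). The difference of 0.20 (SE 0.133), or 1.15-fold, had a 95% interval of -0.11 to 0.52 and did not pass (limma, adjusted p = 0.397). Groups without overlap and with the differentiated arrays higher were found for 13.6% of all probes tested. The value lay between 0.16 and 0.33 under the alternatives other than leaving out 1 array, and it was 0.11 without differentiated array 3. The lowest adjusted p over the alternatives was 0.257 in limma.

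Gk, the glycerol kinase gene, had levels of -0.46, -0.46 and -0.90 on differentiated arrays 1, 2 and 3, and of -0.51, -0.58 and -0.43 on undifferentiated arrays 1, 2 and 3. Differentiated array 3 stood apart from the others, and differentiated arrays 1 and 2 lay within the undifferentiated range. The difference was -0.10 (SE 0.157, n = 3 each, limma, adjusted p = 0.748), with a 95% interval of -0.47 to 0.27, or 1.38-fold lower to 1.21-fold higher. Without differentiated array 3 it was 0.05 (limma, adjusted p = 0.807), so that its sign rests on that array. The SD over the spots of Gk on differentiated array 3 was 0.315, against 0.058 to 0.119 on the other arrays. Its part in the low level there was not tested.

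Differentiated array 3 also bore on the other members. Without it the difference was -0.05 for Gapdh and -0.59 for the mouse-named Pgk1 3' spots (limma, adjusted p = 0.819 and 0.0530).

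The enzymes were then set against each other within each array, which cancels any scaling of the array as a whole. The level of one probe against another is not read here, only whether the difference moved between the groups. Of 10 pairs formed from Gapdh, Pgk1 (mouse-named 3' spots), G6pd2, Gk and Ldhal6b, 2 did not overlap between the groups. For levels of single probes the share without overlap was 32.8%. No such share was computed for pairs, and these pairs reuse the same probes, so the count is not read further. The largest group difference was that of G6pd2 minus Pgk1. It was -7.15, -7.21 and -7.26 on differentiated and -7.67, -7.88 and -8.11 on undifferentiated arrays 1, 2 and 3. As scaled here, G6pd2 minus Pgk1 was higher by 0.68 on the differentiated arrays, without overlap (exact permutation p = 0.1, the smallest this design allows). It was higher by 0.36 with quantile normalization and by 0.39 in the authors' value table. These Pgk1 spots are among the brightest 10% of probes kept and G6pd2 is not. A shift that depends on brightness does not cancel within an array, and its part was not tested.

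Gapdh minus G6pd2 was 8.77, 8.77 and 8.28 on differentiated and 8.82, 8.92 and 9.06 on undifferentiated arrays 1, 2 and 3, a group difference of -0.33 (exact permutation p = 0.1). The separation was narrow for undifferentiated array 1, and differentiated array 3 stood apart. The difference was -0.16 without differentiated array 3, -0.15 with quantile normalization, -0.18 in the authors' value table and -0.53 with the scan as a block. Gapdh minus Pgk1, whose enzymes act in consecutive glycolytic steps, differed by 0.35 between the groups (exact permutation p = 0.3). The groups overlapped, with differentiated array 3 among the undifferentiated arrays. Ldhal6b minus Pgk1 differed by 0.54 and Gk minus Pgk1 by 0.38 (exact permutation p = 0.2 and 0.4). After Benjamini-Hochberg adjustment of the exact permutation p-values over the 10 pairs the lowest was 0.444. No adjusted value could have passed 0.05 in this design. G6pd2 minus Pgk1 had the same sign under all alternatives run, from 0.36 with quantile normalization to 0.90 with the slide as a block.

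**Figure D4:**
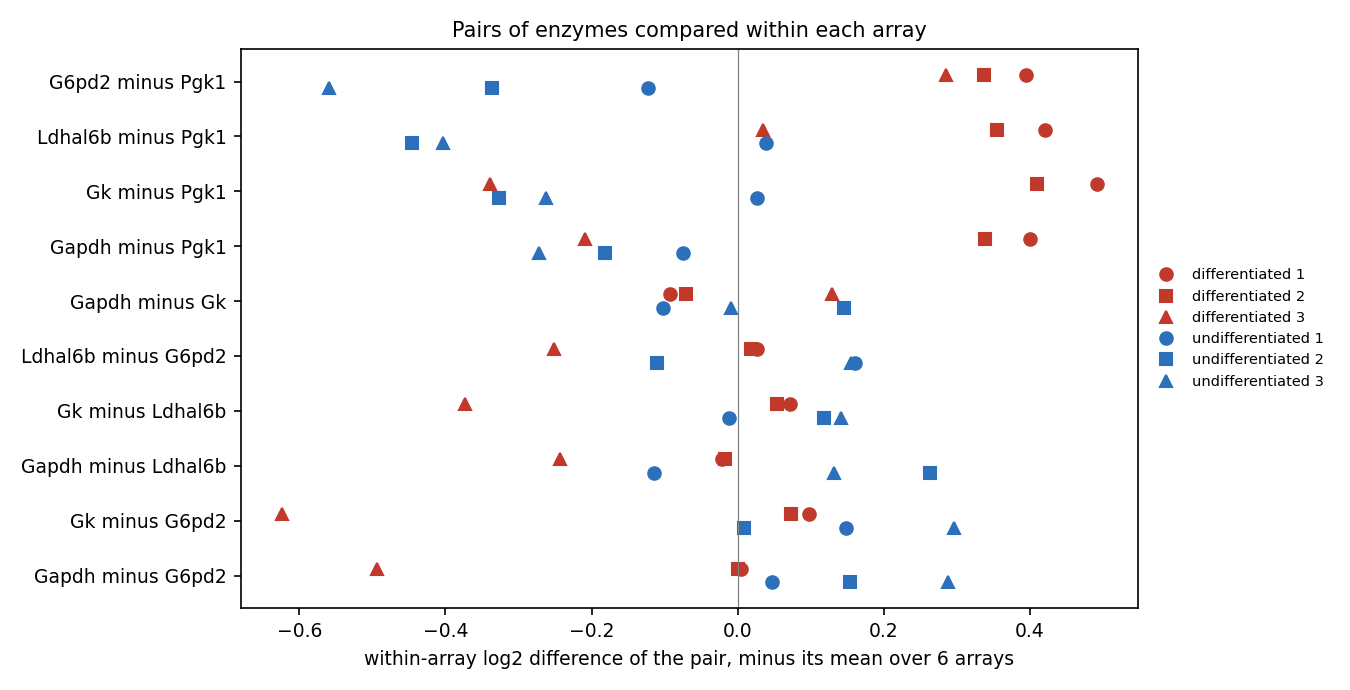
The within-array log2 difference of each of 10 pairs of enzyme probes, minus its mean over the 6 arrays, with differentiated arrays in red and undifferentiated arrays in blue and a marker shape for each replicate number. Red and blue points are separate for G6pd2 minus Pgk1 and for Gapdh minus G6pd2, and overlap for the other pairs.

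The pattern over the 6 arrays was also compared with that of the other accession-bearing genes, by the root mean square difference of levels centred on each gene's mean. Gapdh was most like Ppia (0.090), a cyclophilin gene, and Gk (0.102). Pgk1, by its mouse-named 3' spots, was most like Tfrc (0.062), the transferrin receptor gene, and Hprt (0.071), a purine salvage gene, and least like B2m (0.445). The human- and rat-named Pgk1 3' spots lay farther from these spots, at 0.188 and 0.316. The likeness is thus that of 1 Pgk1 probe. G6pd2 was most like Gusb (0.122) and Tbp (0.130), Ldhal6b most like G6pd2 (0.145) and Gapdh (0.163), and Gk most like Gapdh (0.102) and Ppia (0.149). With 14 or 15 genes to choose from and 6 arrays, these are descriptions.

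A further 49 genes were listed for glycolysis, the pentose phosphate pathway and glycerol metabolism, such as Hk2, Pfkl, Ldha, G6pdx, Tkt and Gpd2. Of these, 0 are named by an accession-bearing probe. Their levels were therefore not analysed here, and 0 could be counted as higher or lower.

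**Figure D5:**
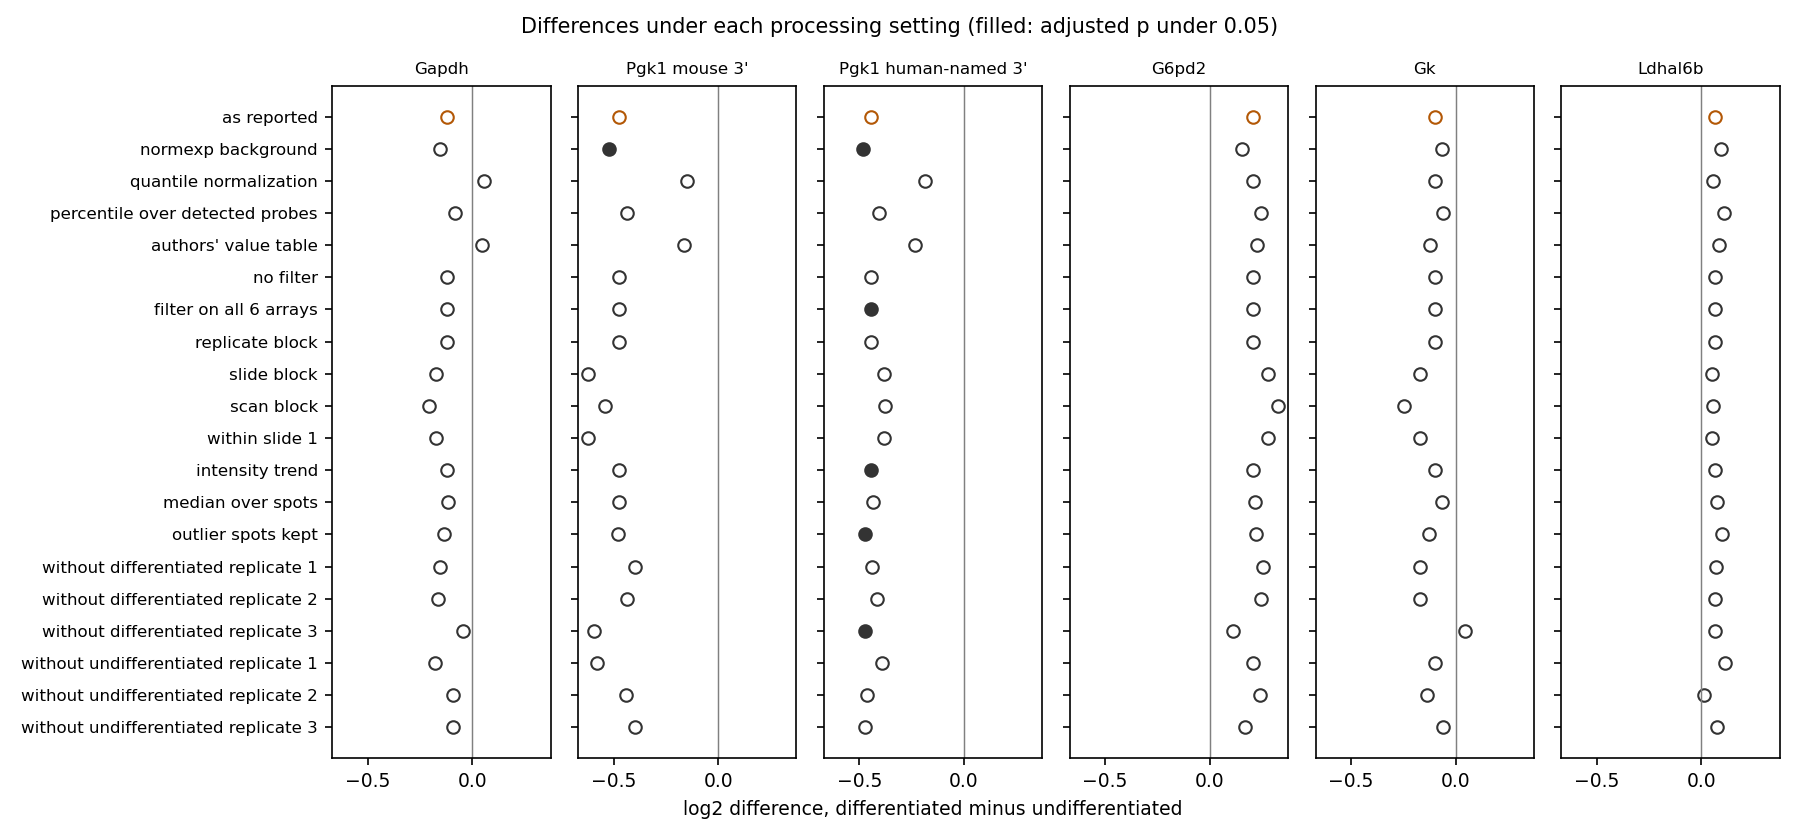
The log2 difference between differentiated and undifferentiated arrays for 6 probes (columns) under each processing setting (rows), filled where limma's adjusted p was under 0.05. The mouse- and human-named Pgk1 3' spots stay below 0 throughout and are smallest with quantile normalization and in the authors' value table. Gapdh lies on either side of 0, and G6pd2 and Ldhal6b stay above 0.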

How the data were processed

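RNA of 6 samples was hybridised to one-colour Agilent arrays, after ribosomal RNA removal and random priming along the transcript, per the labels' protocols. The series' design text names Affymetrix arrays and a label field biotin, which conflicts with the Agilent arrays of the file headers and the Cy3 of the protocol. The deposited scanner files hold intensity values from Agilent Feature Extraction 11.0.1.1, background-subtracted and detrended within each array and not scaled between arrays, per the file headers. The deposited value table holds log2 values. Its medians (5.75 in each column) and its correlation of 0.998 or more with the own array's log2 scanner signal settle scale and direction, while its normalization by the authors was not given in the sources used here.

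From the scanner files, outlier spots were left out, spots of a probe were averaged on the log2 scale, and each array's 75th percentile over non-control probes was subtracted. Probes well above background on at least 3 of 6 arrays were kept (41838 of 60915, 68.7%). The number of arrays limits the precision. Limma (3.58.1, R 4.3.3) was fitted on all kept probes, two-sided, with Benjamini-Hochberg adjustment and a threshold of 0.05. The 12 control-spot probes were appended to a second fit of the same kind. Pairs of members and 5' minus 3' values were compared by exact permutation over arrays. All 15 accessions matched a RefSeq symbol of GRCm38.p6 (versions ignored). The array's design rests on mm9, so no gene coordinates other than those of the printed promoters are given. Normexp used median signals, since these files have no mean signal of the spots. The named genes were, by rule, all 5 members, any listed pathway gene that a probe's accession names, and the 2 accession-bearing genes most like each member. Members and lists were chosen with earlier results of these data known. Alternatives covered background, scaling, the authors' table, filters, blocks by replicate, slide and scan, spot averaging and leaving out each array. Same-numbered samples deviated together with correlations of 0.14, -0.087 and 0.034, so the numbers were not taken to pair them.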

Additional observations from a re-analysis of the deposited data

How the results depend on the processing

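Under all settings tried, limma called 0 of the 4 accession-bearing member probes. The number of probes called over the whole array, 5569, was 3213 with the slide as a block, 1520 with the scan as a block, 2422 within slide 1, and 2924 to 5976 without 1 array (3164 and 2924 without differentiated arrays 1 and 2, 3066 and 3337 without undifferentiated arrays 2 and 3). The cause was not tested. With the replicate block limma called 3996 probes, Gapdh stood at -0.12 (adjusted p = 0.666) and the mouse-named Pgk1 3' spots at -0.47 (adjusted p = 0.104), and the block changed no member's call.
With the normexp background the human- and mouse-named Pgk1 3' spots passed, at -0.48 and -0.52. The human-named ones also passed at the reported -0.44 with the filter on all 6 arrays, where fewer probes are tested, and with the intensity trend, and at -0.47 with outlier spots kept. With quantile normalization and in the authors' value table the sign turned for Gapdh (0.055 and 0.048), human-named Gapdh 3' (0.17 and 0.14), mouse-named Gapdh 3' (0.044 and 0.037) and 5' (0.13 and 0.11), rat-named Gapdh 5' (0.076 and 0.078), 5' minus 3' of mouse-named Pgk1 (-0.13 and -0.13) and human-named Gapdh (-0.031 and -0.0056), and Gapdh minus Gk (0.15 and 0.17). Gapdh minus Ldhal6b was 0.00078 with quantile normalization. Rat-named Gapdh 5' was 0.033 with the percentile over detected probes, 0.053 with the scan block and 0.0030 with outlier spots kept. With the scan block, mouse- and rat-named Pgk1 5' were 0.047 and 0.0028, 5' minus 3' of rat-named Pgk1 0.051 and Gapdh minus Gk 0.038. The 5' minus 3' value of human-named Pgk1 was 0.37 with normexp, 0.22 with the slide block and within slide 1, 0.28 with the scan block and 0.052 with outlier spots kept. The cause was not tested. Leaving out 1 array gave -0.17 to 0.047 for Gk, -0.067 to 0.21 for human-named Gapdh 5', -0.11 to 0.096 for rat-named Gapdh 5', -0.48 to -0.39 for human-named Pgk1 3', -0.14 to 0.13 for 5' minus 3' of human-named Pgk1 and -0.093 to 0.044 for Gapdh minus Gk. The other differences recomputed kept their sign, and those tested with limma their side of the threshold. No p was computed for pairs and 5' minus 3' values with the slide or scan as a block. Blocks by slide or scan rest on undifferentiated array 3, the lone undifferentiated array beside differentiated ones.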
